A study of Mus musculus with 8 samples.

Results

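The translating RNA of UCP1-positive cells was compared between 2 white fat depots of cold-exposed mice, the inguinal pad (iWAT, under the skin of the groin, 3 libraries) and the perigonadal pad (pgWAT, inside the abdomen around the reproductive organs, 2 libraries). These 5 libraries were taken by their tissue label from the 8 in the series. The other 3, from brown fat (BAT), are given here as levels beside the comparison and enter its test only in alternative fits. All libraries came from female C57B/6 UCP1-TRAP mice aged 6 weeks, which were bred at 30 °C, moved to room temperature at weaning at 3 weeks, placed at 4 °C at 4 weeks and kept there for 2 weeks. Tissue was freshly dissected, and RNA was immunoprecipitated with an antibody to GFP. The labels do not say whether replicates came from separate animals, so a p-value measures the spread between these libraries, which may in part be technical. Unbound or whole-tissue RNA was not analysed here, so enrichment of UCP1-positive cells over their tissue was not measured.

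UCP1 is a protein of the inner mitochondrial membrane that lets protons leak back without making ATP, so that fuel is burned for heat. Brown adipocytes carry it constitutively, and beige adipocytes are cells with the same property that appear within white fat during cold. In translating ribosome affinity purification (TRAP), a ribosomal protein tagged with GFP is made only in cells that use a chosen promoter, here that of Ucp1, and pulling down the tag brings the messenger RNAs bound to ribosomes. RNA of other cells reaches such a pull-down only if those cells make the tag or if their RNA sticks to it. In female mice the inguinal pad also holds mammary gland, whose ducts have an inner luminal layer and an outer myoepithelial layer, and myoepithelial cells contract with the same proteins as smooth muscle.

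Expression was deposited as FPKM, fragment counts divided by transcript length and by the mapped fragments of the library, on the mm9 mouse genome. The 28702 transcripts of each library were summed to 22552 gene symbols. Listed transcripts took an estimated 275349 to 567646 fragments in the inguinal and 623085 to 1162586 in the perigonadal libraries, and 14.6% to 46.5% of the fragments behind the FPKM denominator. Because the share of fragments on listed transcripts differed, each library was divided by a median-ratio factor, from 0.503 (inguinal replicate 3) to 1.66 (perigonadal replicate 1). Levels below are such scaled FPKM. Differences are inguinal minus perigonadal on the log2(scaled FPKM + 1) scale, tested with limma, 2-sided, with Benjamini-Hochberg adjustment over all 8763 genes that reached 1 FPKM in at least 2 of the 5 libraries, and a gene is called at an adjusted p under 0.05. Perigonadal replicate 1 differed from replicate 2 in nuclear RNAs: Malat1 was at 560 against 57.2, Neat1 at 106 against 11.5 and Xist at 32.6 against 2.53. Of 3688 genes that reached 5 in either perigonadal library, 42 were more than 4-fold higher in replicate 1 (after adding 1 to each value), 20 of them small nucleolar RNAs, and 12 were more than 4-fold lower, with 0 small nucleolar RNAs. These RNAs were named after their values were seen. Of 3676 genes that reached 5 in inguinal replicate 1 or 2, 15 were more than 4-fold higher in replicate 1 and 18 lower. Small nucleolar RNAs were 7 of the higher and 7 of the lower ones. Over all tested genes the 2 perigonadal libraries correlated at 0.9427, and inguinal replicates 1 and 2 at 0.9436.

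With scaling, no gene in the thermogenic or adipocyte lists was called different between the depots. The called genes were few, and most belonged to the lists of smooth muscle or mammary epithelium. These lists were chosen with earlier results of these data known, so membership in them is not independent support. Of the 8763 genes, 20 (0.228%) were called higher in the inguinal libraries and 3 (0.0342%) lower. The 20 were led by Expi, Acta2, Fxyd3 and Ltf. By the gene symbols in the files, 5 of them were in the smooth muscle list, 10 in the mammary luminal or the basal and myoepithelial list, and 5 in neither. A list member entered under another symbol would not have been matched. The 3 lower ones were all RNAs shorter than 300 nt. Without scaling, on FPKM as deposited, 50 (0.571%) were called, 20 higher and 30 (0.342%) lower, and 19 calls were shared. The median difference of all genes was -0.02 with scaling and -0.51 without, so calls of lower genes on deposited values are read against that shift. At an unadjusted p under 0.05, limma gave 409 genes higher and 218 lower.

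**Figure D1:**
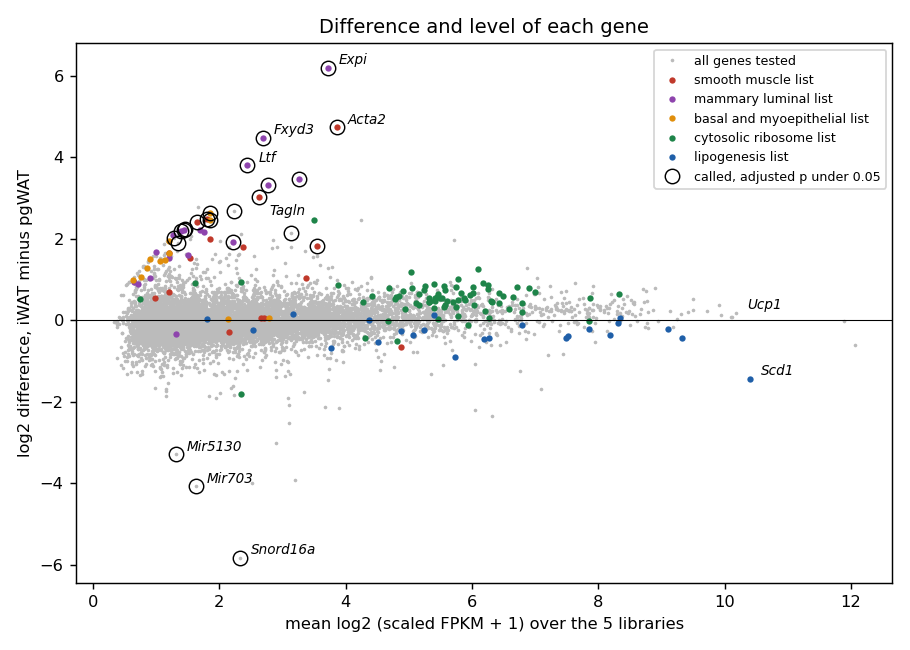
Each point is 1 of 8763 genes, with its mean level over the 5 libraries on the x axis and its log2 difference (inguinal minus perigonadal) on the y axis, both from log2(scaled FPKM + 1); colours mark 5 gene lists and rings mark the 23 called genes. Expi, Acta2, Fxyd3 and Ltf lie highest, the 3 ringed genes at the bottom are short RNAs, and Ucp1 lies near 0.

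Of the contractile genes of smooth muscle, 5 were called higher in the inguinal libraries, Acta2, Tagln, Myh11, Cnn1 and Csrp1. Acta2, smooth muscle actin, was at 79.5, 36.4 and 51.1 in the inguinal libraries and at 1.31 and 0.798 in the perigonadal ones. All inguinal libraries were above both perigonadal ones, by a mean ratio of 52.9, and the log2 difference was 4.73 (SE 0.33, limma adjusted p = 0.0012). The reads behind it were about 330, 140 and 83 fragments against 9.2 and 2.5. In brown fat its mean was 0.245. Acta2 lies on chromosome 19, 34315581 to 34329826 in mm9. Tagln, an actin-binding protein of smooth muscle, was at 19.1, 8.32 and 14.3 against 0.772 and 0.742 (log2 difference 3.02, adjusted p = 0.0141), and was listed at 0 in all brown fat libraries. Myh11, the myosin heavy chain of smooth muscle, was at 6.92, 5.13 and 5.95 against 0.222 and 0.276 (2.48, adjusted p = 0.00814). Cnn1, the calponin of smooth muscle, was at 6.87, 3.27 and 5.76 against 0.312 and 0 (2.41, adjusted p = 0.0344). Csrp1, a partner of the actin cytoskeleton, was at 22.6, 19.0 and 14.3 against 4.11 and 4.82 (1.83, adjusted p = 0.0344), and was not called on deposited values (adjusted p = 0.656).

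Of the 24 genes in the smooth muscle list 16 were tested, since the others did not pass the minimum, and 5 of the 16 were called higher and 0 lower, where 0.228% of all genes were called higher. The median difference of the 16 was 1.58, against -0.02 for all genes (1.23 against -0.51 as deposited), though 16 of the 24 had a mean of at least 1 in the inguinal and 8 in the perigonadal libraries, so some passed only through the inguinal group. The inguinal and perigonadal libraries did not overlap in 12, with the inguinal ones higher, where 11.6% of all genes did so. In several uncalled members too, all inguinal libraries lay above both perigonadal ones. Flna, filamin, was at 10.2, 5.82 and 7.22 against 2.45 and 0.744 (adjusted p = 0.154). Myl9, the regulatory light chain of smooth muscle myosin, was at 7.97, 2.42 and 6.95 against 0.861 and 0.328 (adjusted p = 0.234). Tpm2, a tropomyosin, was at 4.62, 2.90 and 2.90 against 0.437 and 0.652 (adjusted p = 0.137). Actg2, enteric smooth muscle actin, ran from 1.15 to 6.74 in the inguinal libraries (adjusted p = 0.502). Not all contractile genes lay apart: Des, the intermediate filament desmin, was at 4.19, 6.39 and 5.93 against 5.06 and 5.22, with a 95% interval for its difference of -0.48 to 0.62. Flna, Tpm2 and Myl9 were picked for mention after their values were seen.

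Summed over the list, the smooth muscle genes reached 226, 142 and 157 in the inguinal libraries, 78.7 and 62.5 in the perigonadal and 35.8 to 42.0 in the brown fat libraries. Inguinal replicate 1 held the highest inguinal value in 13 of the 16 members. When each library was left out in turn, Acta2 kept its call in all 5 fits. Tagln lost it without perigonadal replicate 1 (adjusted p = 0.22) and without replicate 2 (0.11), and so did Myh11 (0.161 and 0.0792). Cnn1 and Csrp1 were each called in 1 of the 5 fits, with adjusted p up to 0.237 and 0.38. With only 1 perigonadal library left, that library is assumed to vary as the inguinal ones do. Pericyte genes, the nearest mural cell type, did not lie apart: 0 of 5 tested were called (3 of 5 were below 0, 0 at an unadjusted p under 0.05 in limma), and Cspg4 was at 2.58, 3.46 and 4.07 against 3.84 and 4.14. The pericyte receptor gene Pdgfrb was at 0.178 to 0.4995 in the inguinal and at 0.338 and 0.419 in the perigonadal libraries, below the minimum for testing. The list of cytoskeletal targets of MRTF and SRF, the actin-sensing transcription factors of contractile genes, had 0 of 19 called (6 higher and 0 lower at an unadjusted p under 0.05 in limma), and its median was 0.43 (0.06 as deposited). Of its 23 genes, 18 had a mean of at least 1 in the inguinal and 11 in the perigonadal libraries, so some passed only through the inguinal group. Its most abundant members were close, with Actb at 193, 175 and 180 against 149 and 173 and Actg1 at 108, 115 and 106 against 88.2 and 119. In these bulk samples, more cells of a type and more RNA of it per cell cannot be told apart.

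The promoters of the smooth muscle genes are shown because SRF binds a DNA element called the CArG box, and Acta2 had the largest difference in this list. A CArG-like box was searched on the gene's strand in the 250 bases before the RefSeq start (GRCm38.p6), as CCNNNNNNGG with at least 5 of the 6 inner bases A or T; the pattern reads as itself on the other strand. It occurred in 9.78% of the 27025 genes with an entry, and at least 2 times in 0.759%. Of the 16 tested smooth muscle genes 12 had an entry, 3 of which had a box and 2 at least 2 boxes, namely Acta2 and Myl9. Their sequences follow 5′ to 3′ with the boxes in capitals, Acta2 from the minus strand at chr19:34255374-34255623 and Myl9 from the plus strand at chr2:156775214-156775463.
Acta2: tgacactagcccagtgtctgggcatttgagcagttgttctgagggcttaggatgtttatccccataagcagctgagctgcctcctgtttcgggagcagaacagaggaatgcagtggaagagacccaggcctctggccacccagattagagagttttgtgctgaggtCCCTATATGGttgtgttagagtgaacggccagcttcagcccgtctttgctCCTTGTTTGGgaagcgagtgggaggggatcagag
Myl9: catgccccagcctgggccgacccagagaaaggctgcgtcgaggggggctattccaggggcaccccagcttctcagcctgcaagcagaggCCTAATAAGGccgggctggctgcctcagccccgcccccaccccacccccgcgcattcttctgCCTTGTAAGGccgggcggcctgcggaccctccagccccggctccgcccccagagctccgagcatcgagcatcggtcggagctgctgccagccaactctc
In Acta2 the boxes began 84 and 34 bases before the start, and in Myl9 161 and 99 bases before it. A match of letters is not a measurement of binding.

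Genes of mammary luminal epithelium and milk formed the other large group. Expi, a small secreted protease-inhibitor-like protein of the mammary gland (now called Wfdc18), was at 56.1, 52.3 and 127 in the inguinal libraries and was listed at 0 in both perigonadal and all 3 brown fat libraries. About 44, 38 and 34 fragments stood behind the inguinal values, and the log2 difference, which for a gene listed at 0 depends on the pseudocount of 1, was 6.19 (SE 0.37, limma adjusted p = 0.000835). Expi lies on chromosome 11, 83522506 to 83524862 in mm9. Fxyd3, an epithelial regulator of the sodium pump, was at 22.2, 14.2 and 30.1 and likewise listed at 0 in the other 5 libraries (4.47, SE 0.31, adjusted p = 0.0012). Ltf, lactoferrin, an iron-binding protein of milk, was at 10.2, 19.1 and 15.7 against 0.0811 and 0.161 (3.80, SE 0.29, adjusted p = 0.00177). These 3 genes kept their call with any 1 library left out, but with no filter on low values they and Acta2 lost it (adjusted p = 0.0885). Lcn2, lipocalin 2, which adipocytes as well as epithelia secrete, was at 29.1, 25.7 and 18.5 against 2.14 and 0.625 (3.47, adjusted p = 0.00789), and lost its call without perigonadal replicate 2 (adjusted p = 0.0642). Csn3, the milk protein kappa casein, was at 13.5, 12.2 and 24.9 against 0.29 and 1.30 (3.31, adjusted p = 0.0145), and lost its call without perigonadal replicate 1 (0.22) and replicate 2 (0.0642). Unlike the other 19 called genes, Csn3 was as high in brown fat, at 8.21, 15.8 and 26.6.

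Of the 35 luminal and milk gene symbols 33 were in the files and 18 passed the minimum. Of these 18 genes 8 were called higher and 0 lower, where 0.228% of all genes were called higher. Their median difference was 2.14 (1.82 as deposited). Since 19 of the 33 had a mean of at least 1 in the inguinal but 3 in the perigonadal libraries, most passed the minimum only through the group where they were high, which sets the direction of that median. The other called members were Epcam, an adhesion molecule of epithelia (5.51, 2.68 and 4.28 against 0 and 0.185), the luminal keratin Krt18 (4.73, 3.54 and 3.37 against 0.122 and 0) and the membrane protease inhibitor Spint2 (8.73, 6.05 and 6.28 against 0.993 and 1.19). Their adjusted p-values by limma were 0.0416, 0.0209 and 0.0274, and each was called in only 1 of the 5 fits that left out a library. Spint2 was not called as deposited (adjusted p = 0.352). The keratin partner of Krt18, Krt8, was at 6.18, 2.65 and 8.03 against 0.589 and 0.188 and was not called (adjusted p = 0.137). Krt19 missed the threshold by little (adjusted p = 0.0535), and the receptor Kit likewise (0.0663). The prolactin receptor Prlr did not share the pattern, at 1.17, 1.21 and 1.40 against 1.66 and 2.09 (adjusted p = 0.845); Krt19, Kit and Prlr were named after their values were seen. Among proteins of full lactation, Csn2 and Wap were listed at 0 in all libraries, Csn1s1 was at 2.20 in inguinal replicate 2 and Lalba at 4.51 in inguinal replicate 3, and both were at 0 elsewhere.

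Basal and myoepithelial genes followed. Krt14, a keratin of basal epithelial layers, was at 7.08, 4.18 and 8.92 against 0.0485 and 0.387 (log2 difference 2.63, adjusted p = 0.0245). Its partner Krt5 was at 9.12, 4.74 and 5.22 against 0 and 0.669 (2.46, adjusted p = 0.0416). Both were listed at 0 in brown fat. Of 12 tested members of the list of 20, 2 were called higher and 0 lower, where 0.228% of all genes were called higher. Their median was 1.47 (1.23 as deposited), but 15 of the 20 had a mean of at least 1 in the inguinal and 2 in the perigonadal libraries, so this median too follows from which genes passed. Krt14 was called in 2 and Krt5 in 0 of the 5 fits with a library left out (adjusted p up to 0.324 and 0.399). Krt17 was at 4.57, 1.63 and 3.17 against 0.0566 and 0 (adjusted p = 0.137). Oxtr, the oxytocin receptor that makes myoepithelium contract, is part of this list and was level, at 2.58, 4.19 and 3.57 against 3.30 and 3.37 (95% interval -0.55 to 0.59). Actg2 is in this list as well as in the smooth muscle one. Krt17 and Oxtr were picked after their values were seen.

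The luminal genes summed to 186, 158 and 274 in the inguinal libraries, to 7.77 and 7.55 in the perigonadal and to 10.3 to 30.8 in the brown fat libraries, and the basal genes to 61.5, 33.1 and 46.3, to 10.1 and 11.2, and to 3.05 to 5.77. The summed level of each of the 3 lists was higher in every inguinal library than in both perigonadal ones. Within the inguinal group replicate 2 was lowest in 9 of 16 smooth muscle, 12 of 18 luminal and 8 of 12 basal genes. The library that was most often highest differed by list. The same counts were not made over all genes. Replicate 1 held the highest value in 13 of 16 smooth muscle genes and in 6 of 18 luminal genes, and replicate 3 in 0 of 16 and in 11 of 18. Among basal genes replicate 1 was highest in 7 of 12. The part of epithelial cells in the difference of the contractile genes was not tested.

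**Figure D2:**
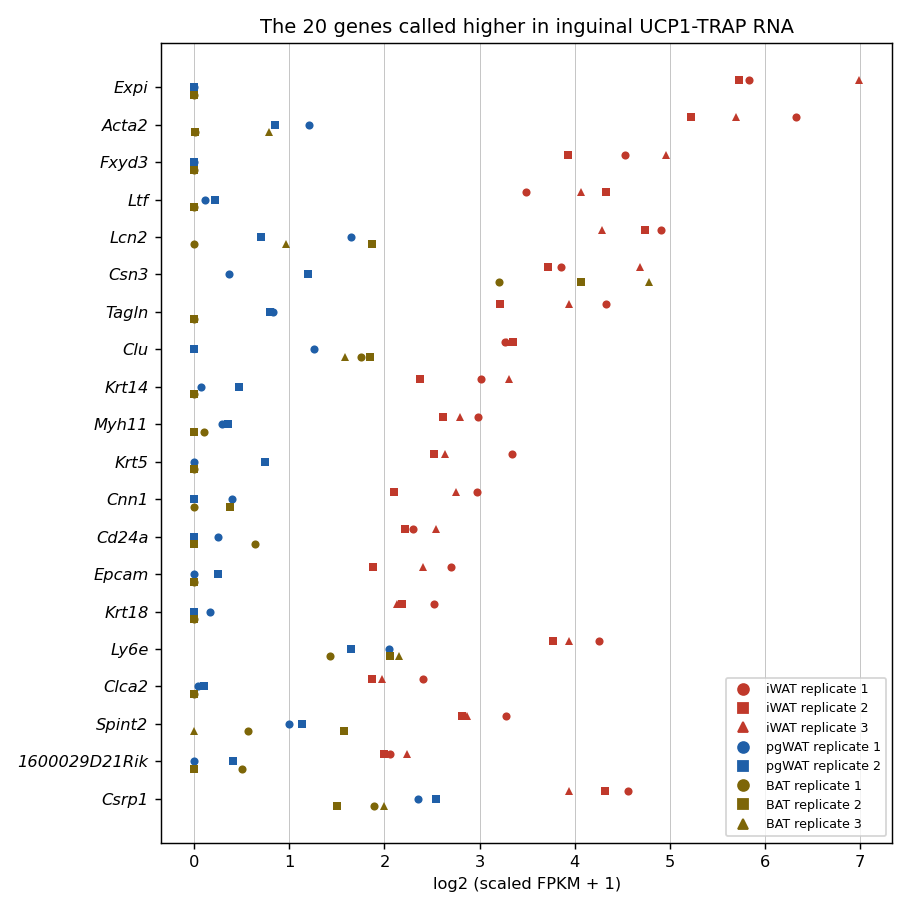
Each row is 1 of the 20 genes called higher in the inguinal libraries, ordered by difference, and each marker is 1 library (red inguinal, blue perigonadal, brown brown fat; the shape gives the replicate) on a log2(scaled FPKM + 1) axis. In every row the 3 red markers lie to the right of the blue ones, and in all rows but that of Csn3 also of the brown ones.

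The 5 called genes whose symbols were not matched to these lists were low in brown fat as well. Clu, the secreted chaperone clusterin, was at 8.64, 9.21 and 8.80 against 1.39 and 0 (2.68, adjusted p = 0.0344). Ly6e, a surface protein, was at 18.2, 12.7 and 14.4 against 3.14 and 2.13 (2.14, adjusted p = 0.0162; 0.34 as deposited, where it was not called). Cd24a, a surface protein of epithelial and blood cells, was at 3.92, 3.65 and 4.83 against 0.189 and 0 (2.23, adjusted p = 0.0171). Clca2, an epithelial membrane protein, was at 4.29, 2.65 and 2.92 against 0.0281 and 0.0725 (adjusted p = 0.0416), and 1600029D21Rik at 3.15, 2.97 and 3.73 against 0 and 0.324 (adjusted p = 0.0422; 0.0933 as deposited, where it was not called). With each library left out in turn, Clu was called in 1 of 5 fits, Ly6e and Cd24a in 2 each, and Clca2 and 1600029D21Rik in 0, with adjusted p up to 0.14, 0.161, 0.22, 0.392 and 0.402. Cd24a and 1600029D21Rik rest on 24 and 23 fragments over the 3 inguinal libraries.

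All 3 genes called lower in the inguinal libraries were listed at 0 in each of them. Snord16a, a small nucleolar RNA, was at 138 and 22.3 in the perigonadal libraries, from about 14 and 1 fragments. The microRNA entries Mir703 (18.1 and 13.8, about 3 and 1 fragments) and Mir5130 (6.12 and 12.3, about 10.2 and 13.2 fragments) were the other two. These entries are 84 to 109 nt long, and for Mir703 and Snord16a the value in perigonadal replicate 2 came from about 1 fragment. Mir5130 was also at 0, 14.8 and 8.83 in the brown fat libraries. None of the 3 was called without perigonadal replicate 1 or without replicate 2, since they then did not pass the minimum in 2 libraries, and Snord16a lost its call without inguinal replicate 1 as well (adjusted p = 0.0514). No gene of 300 nt or more was called lower with scaling, and 17 were as deposited.

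The lists of other cell types within a fat pad differed in direction. Mesothelium, the lining of abdominal organs, has keratins in common with luminal epithelium: of its 7 tested genes, 1 was called higher, Krt18, which is also in the luminal list. The list had a median of 1.35 with 6 of 7 tested genes above 0 (5 higher and 0 lower at an unadjusted p under 0.05 in limma), among them Krt8, Krt19 and Igfbp5, a binding protein of insulin-like growth factors, at 21.2, 14.9 and 14.5 against 10.2 and 3.23. Of the 17 in the files, 7 had a mean of at least 1 in the inguinal and 4 in the perigonadal libraries. Some thus passed the minimum only through the inguinal group, which bears on the direction of that median. Some markers that did not pass the minimum had values in the perigonadal libraries only. Upk3b was listed at 0 in all inguinal libraries and at 4.90 and 0.870 in the perigonadal ones, Msln at 0 and at 1.72 and 0, and Wt1, a transcription factor of visceral fat and mesothelium, at 0 and at 0.438 and 0.227. Of all its genes, 8 of the 17 in the files were listed at 0 in every inguinal library against 0 in every perigonadal one. Endothelial genes had 0 of 6 called (0 higher and 3 lower at an unadjusted p under 0.05 in limma), a median of -0.77 (-1.08 as deposited) and sums of 3.73 to 7.90 against 17.1 and 13.8. Of the 20 in the list, 6 had a mean of at least 1 in the perigonadal but 2 in the inguinal libraries. Some thus passed the minimum only through the perigonadal group where they were high, which bears on the direction of that median. Emcn, an endothelial sialomucin, was listed at 0 in the inguinal libraries and at 0.923 and 1.64 in the perigonadal ones (adjusted p = 0.385).

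In the list of fibroblasts and extracellular matrix, 0 of 22 were called (1 higher and 4 lower at an unadjusted p under 0.05 in limma), with a median of -0.30. Of the 28 in the list, 22 had a mean of at least 1 in the perigonadal and 16 in the inguinal libraries. Some thus passed the minimum only through the perigonadal group, which bears on that median. Dcn, the matrix proteoglycan decorin, was at 2.98, 1.71 and 1.06 against 17.4 and 4.46 (log2 difference -1.83, adjusted p = 0.385; 0.00924 as deposited). Its difference was -0.92 without perigonadal replicate 1, where the list summed to 313 against 199 in replicate 2 and 183 to 227 in the inguinal libraries. Postn, a matrix protein of tissue under tension, was at 6.06, 4.65 and 6.07 against 1.42 and 1.13 (adjusted p = 0.0663). Pdgfra, the receptor that marks adipose progenitors, was at 0.533 to 0.820 against 0.435 and 0.614, below the minimum. Macrophage genes had 0 of 5 tested members called, with 1 higher and 1 lower at an unadjusted p under 0.05, lymphocyte genes 0 of 1, with 0 at an unadjusted p under 0.05, and red blood cell genes 0 of 1 (Hba-a1, lower at an unadjusted p under 0.05, 0.708, 0 and 2.50 against 2.04 and 5.88). Skeletal muscle genes had 0 of 3 called, nerve and Schwann cell genes 0 of 4 and epidermal genes 0 of 1, with 1 nerve gene and 0 of the other two lists' genes at an unadjusted p under 0.05. Of the ovary and uterus list only Ltf and Esr1 were tested, and 17 of its 26 genes were listed at 0 in both perigonadal libraries. Postn and the mesothelial and endothelial genes were named after their values were seen.

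The best-known genes of heat production overlapped between the depots. Ucp1 was at 1251, 1233 and 1177 in the inguinal and at 958 and 1194 in the perigonadal libraries, so the groups overlapped, with a log2 difference of 0.19 (95% interval -0.39 to 0.77, limma adjusted p = 0.919). Brown fat libraries were at 1592 to 1890. Cidea, a lipid droplet protein of thermogenic fat, was at 275, 344 and 296 against 268 and 331 (0.03, interval -0.50 to 0.55). Cox8b, a heart and brown fat subunit of cytochrome c oxidase, was at 765, 727 and 681 against 511 and 778 (0.20, interval -0.41 to 0.81). Dio2, which activates thyroid hormone, was at 27.9, 18.3 and 14.2 against 17.2 and 20 (0.06, interval -0.60 to 0.72). Ppargc1a, a coactivator of mitochondrial genes, was at 4.63, 8.62 and 8.34 against 9.20 and 4.99 (0.03, interval -0.74 to 0.79). Of 22 tested thermogenic genes 0 were called, 11 were above 0 and 11 below, and 2 were lower at an unadjusted p under 0.05 in limma. This even split depended on the scaling. As deposited 0 of the 22 were called and 0 were above 0, with a median of -0.64 against -0.51 for all genes, and Ucp1 was at -0.47. With quantile normalization 6 were above 0 and the median was -0.16. The 95% intervals above give differences compatible with these 5 libraries and are not limits of detection. Larger differences could also go uncalled, such as that of Scd1 at -1.43. Prdm16, a regulator of brown and beige identity, was below the minimum, at 0.0929 to 0.697 against 0.384 and 0.488.

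Some genes reported as beige markers were sparse. Tbx1 was at 0.919, 0.805 and 0 in the inguinal libraries and listed at 0 in the other 5, Tmem26 was listed at 0 in all but 1 library, and Zic1, a marker of classical brown fat, had values in the 3 brown fat libraries (0.144 to 0.509) and in 1 perigonadal one (0.0563). None of these reached the minimum. Of the 13 genes in the beige-selective list 5 were tested, and Tbx1, Tmem26, Tnfrsf9, Cited1 and Hoxc9 were not among them. Aqp7, 1 of the 5, is also in the list of all adipocytes. Of the 5 tested genes 0 were called, with 0 higher and 1 lower at an unadjusted p under 0.05 in limma. The fatty acid transporter Slc27a1 was at 35.2, 52.6 and 37.3 against 94.3 and 50.3, while brown fat had a mean of 6.34. Slc36a2 was at 55.6, 68.5 and 50.4 against 64.3 and 61.9, and brown fat had a mean of 51.0. Genes of all adipocytes had 0 of 26 called, with 0 higher and 2 lower at an unadjusted p under 0.05 in limma. Of the 26, 23 were below 0, and the median was -0.17. The inguinal libraries were below both perigonadal ones in 6, where 12% of all genes were so, and above both in 0. Fabp4, the fatty acid carrier of adipocytes, was at 3156, 3902 and 4263 against 3822 and 3810, and Adipoq, adiponectin, at 234, 205 and 251 against 251 and 199.

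White adipocyte genes and fat-making enzymes had medians below that of all genes, and no member was called with scaling. The white adipocyte list had a median of -0.53 (0 of 10 called; 2 higher and 3 lower at an unadjusted p under 0.05). Retn, the hormone resistin, was at 36.5, 48.5 and 62.2 against 105 and 101 (log2 difference -1.08, adjusted p = 0.286). Its groups did not overlap, as in 12% of all genes with the inguinal libraries lower. Car3, a carbonic anhydrase of white fat, was at 95.8, 95.2 and 167 against 301 and 142 (adjusted p = 0.718), and Lep, leptin, at 4.00, 0.677 and 0.393 against 3.40 and 1.74, with overlap in both. Slc7a10, an amino acid transporter of white adipocytes, was at 1.62, 1.74 and 1.03 against 15.5 and 3.32 (-1.79, adjusted p = 0.391; 0.00924 as deposited), and its difference was -0.79 without perigonadal replicate 1. In brown fat these genes were at means of 2.21, 3.83, 0.0757 and 0.116.

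Lipogenesis, the making of fatty acids from sugar, had 0 of 23 genes called, 18 below 0 and a median of -0.26 (0 higher and 4 lower at an unadjusted p under 0.05). The inguinal libraries were below both perigonadal ones in 7, where 12% of all genes were so. Scd1, the stearoyl-CoA desaturase that makes monounsaturated fat, was at 610, 1274 and 965 against 2661 and 2248. Its groups did not overlap, and its log2 difference was -1.43 (SE 0.35, adjusted p = 0.342), or -2.09 with an adjusted p of 1.01e-05 as deposited. The related Scd2 was at 33.6, 49.9 and 39.1 against 64.4 and 90.4 (adjusted p = 0.385). Fasn, fatty acid synthase, was at 388, 663 and 692 against 723 and 811 (-0.44, adjusted p = 0.833). Acly, which supplies acetyl-CoA, and Acaca, which carboxylates it, overlapped between the groups (167, 303 and 348 against 270 and 419 for Acly). Of the transcription factors that switch these enzymes on, Srebf1 was at 14.6, 18.6 and 23.9 against 27.8 and 27.0 and Mlxipl at 8.96, 10.9 and 11.1 against 17.7 and 16.4 (adjusted p = 0.72 and 0.458). Inguinal replicate 1 was the lowest library for Scd1, Fasn, Acly and Srebf1. Without it the list's median was -0.08, without perigonadal replicate 1 -0.50 and without replicate 2 -0.05. In brown fat Scd1 had a mean of 108 and Fasn of 68.6. Scd2, Acly, Acaca, Srebf1, Mlxipl and Slc7a10 were picked after their values were seen.

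**Figure D3:**
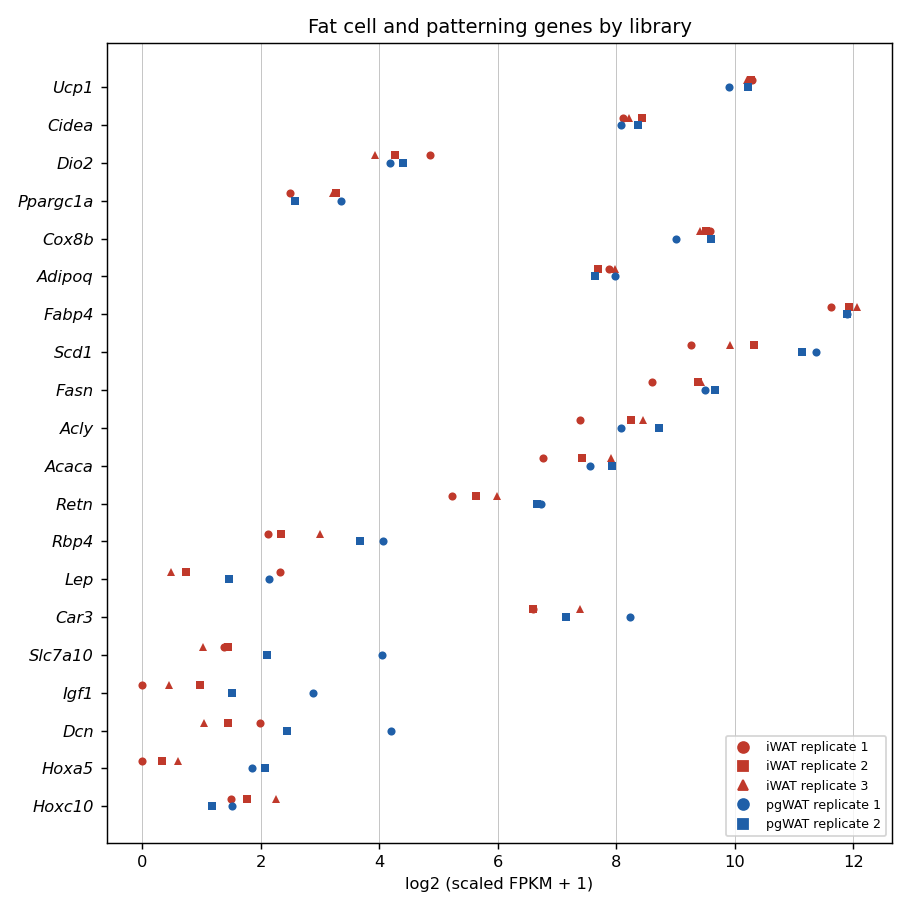
Each row is 1 gene of heat production, adipocyte identity, fat synthesis, secretion or body patterning, and each marker is 1 of the 5 libraries (red inguinal, blue perigonadal) on a log2(scaled FPKM + 1) axis. Ucp1 and Cidea overlap between the groups, while both perigonadal markers lie to the right of the inguinal ones for Scd1, Retn, Rbp4, Slc7a10, Igf1, Dcn and Hoxa5, none of which was called with scaling.

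Secreted proteins went in both directions. Of 20 tested adipokines and other secreted factors 1 was called higher, Lcn2, and the median was -0.47 (2 higher and 4 lower at an unadjusted p under 0.05). Rbp4, the carrier of vitamin A, was at 3.34, 4.09 and 7.03 against 15.7 and 11.7 (log2 difference -1.37, adjusted p = 0.259). Igf1, insulin-like growth factor 1, was at 0, 0.957 and 0.36 against 6.36 and 1.86 (-1.73, adjusted p = 0.358; 0.00714 as deposited), and its difference was -0.98 without perigonadal replicate 1. Vegfa, the angiogenic factor, was at 8.03, 11.6 and 8.80 against 29.3 and 11.9 (adjusted p = 0.634). The chemokine Cxcl14 lay the other way, at 11.1, 13.3 and 9.83 against 1.61 and 3.85 (1.79, adjusted p = 0.103). In each of these 4 genes, all chosen after their values were seen, the groups did not overlap. Of the 20 tested genes of the list, 2 did not overlap with the inguinal libraries higher and 5 with them lower. Over all genes these shares were 11.6% and 12%.

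Developmental genes that mark body position had no called member. Hoxa5 was at 0, 0.263 and 0.526 in the inguinal and at 2.63 and 3.20 in the perigonadal libraries (log2 difference -1.65, adjusted p = 0.137; 0.00924 as deposited), and at a mean of 2.28 in brown fat. Hoxc10 was at 1.83, 2.42 and 3.80 against 1.85 and 1.25 and listed at 0 in brown fat, with overlap between the groups. Of 8 tested Hox genes 0 were called (0 higher and 1 lower at an unadjusted p under 0.05 in limma), and 7 of 8 were below 0. Of the 39 Hox genes, 7 had a mean of at least 1 in the perigonadal and 3 in the inguinal libraries. Some, such as Hoxa5, thus passed the minimum only through the perigonadal group, which bears on that direction. Shox2, a homeobox gene, was at 2.67, 2.64 and 1.52 against 0.2 and 0.505 (1.26, adjusted p = 0.308), and Gata6 at 0.317, 0.235 and 0.194 against 1.18 and 1.27 (-0.83, adjusted p = 0.587); both were picked after their values were seen. Tbx15, a marker of subcutaneous fat, was at 0.357, 0.650 and 0.494 and listed at 0 in both perigonadal libraries, below the minimum. Not every member followed the depot it is reported for: Hoxa10 of the subcutaneous list was at 2.18, 2.80 and 2.32 against 3.10 and 3.09, and Gpc4 of the visceral list at 6.73, 7.55 and 12.7 against 6.18 and 6.47 (adjusted p = 0.889 and 0.833). The lists of genes reported for subcutaneous and for visceral fat had 0 of 4 and 0 of 5 tested genes called, with 1 higher and 2 lower at an unadjusted p under 0.05 in limma, and medians of 0.51 and -0.28. In the subcutaneous list 4 genes had a mean of at least 1 in the inguinal and 2 in the perigonadal libraries. In the visceral list 1 and 4 did. Both medians thus follow in part from which genes passed the minimum.

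Ribosomal protein genes had a median above that of all genes, without a call with scaling. Of 77 tested genes of the cytosolic ribosome 0 were called, while 43 were higher and 0 lower at an unadjusted p under 0.05, and the groups did not overlap in 55, with the inguinal libraries higher, where 11.6% of all genes did so. Of all 8763 genes, 409 were higher at an unadjusted p under 0.05. Their median was 0.56 with scaling and -0.09 as deposited, where the median of all genes was -0.51. It was 0.36 with factors from abundant genes, under which the median of all genes was -0.17. The list summed to 5142, 5642 and 5238 against 3453 and 3914, and to 6489 to 7976 in brown fat. Rpl10a, the protein usually tagged in TRAP, was at 395, 368 and 382 against 233 and 254 (log2 difference 0.65, adjusted p = 0.524). Rpl41 was at 252, 255 and 314 against 161 and 212, and Rpl5, named after its values were seen, at 42.8, 38.2 and 54.3 against 20.5 and 17.7 (adjusted p = 0.137). These genes have near-identical pseudogenes that can share their reads, which was not tested here, and single estimates are uncertain. Rps23 was at 3.83e-05, 27.8 and 0.000783 in the inguinal libraries. As deposited it was called lower (log2 difference -2.18, limma adjusted p = 0.0206), the only 1 of the list called on those values.

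Genes of the respiratory chain were above 0 in nearly all cases, but the size of this depended on 1 library. Complex I had 36 of 37 genes above 0 and a median of 0.38, and complexes II to V had 40 of 41 and 0.31, with 0 called in both lists (5 and 4 higher and 0 lower at an unadjusted p under 0.05). As deposited the medians were -0.28 and -0.34, with 3 and 5 genes above 0. Without perigonadal replicate 1 they were 0.12 and 0.06, and without replicate 2 they were 0.61 and 0.61. Complexes II to V summed to 13134, 13191 and 16324 in the inguinal libraries and to 9179 and 13454 in the perigonadal ones, so that replicate 2 lay within the inguinal range. Cox4i1, a subunit of cytochrome c oxidase, was at 777, 744 and 1010 against 515 and 665, and Atp5b, of ATP synthase, at 976, 928 and 1145 against 837 and 1036. The library with the low sums is the one with high Malat1, Neat1 and Xist, and the part of nuclear RNA in this was not tested. The ribosomal median was 0.53 without that library and 0.59 without replicate 2.

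**Figure D4:**
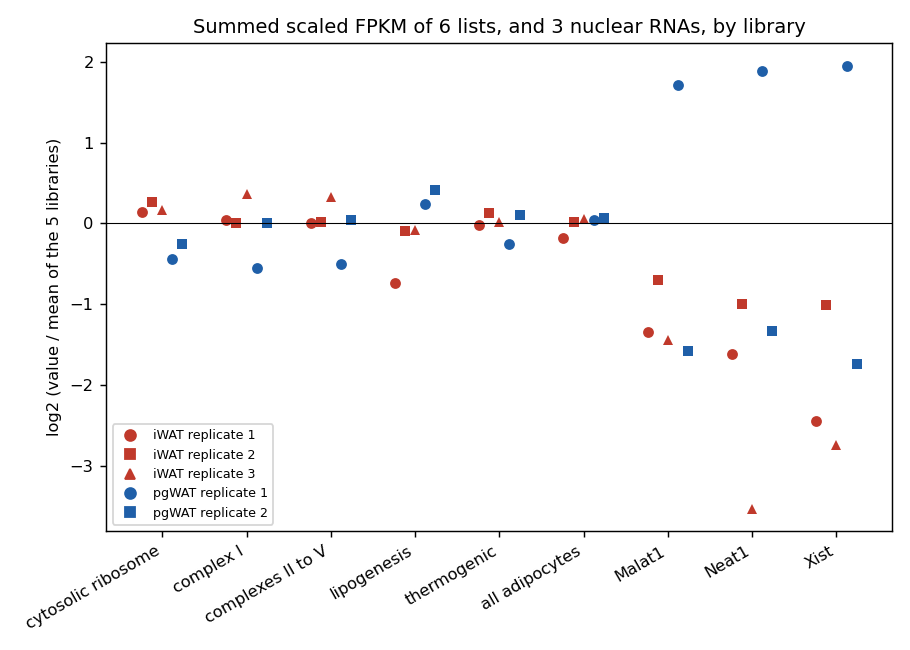
Summed scaled FPKM of 6 gene lists and the levels of 3 nuclear RNAs in the 5 libraries, each as log2 of the value over its mean in these libraries (red inguinal, blue perigonadal, shape by replicate). Perigonadal replicate 1 has the lowest respiratory chain sums and the highest Malat1, Neat1 and Xist, while both perigonadal libraries have low ribosomal and high lipogenesis sums.

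Other metabolic and cellular programs showed no called gene. Medians above 0 were found for the tricarboxylic acid cycle (0.26, 21 genes), fatty acid oxidation (0.20, 25 genes), the breakdown of branched-chain amino acids (0.18, 21 genes), the mitochondrial ribosome (0.23, 76 genes), the proteasome (0.23, 31 genes) and chaperones (0.17, 21 genes). At an unadjusted p under 0.05 limma gave 0, 2, 1, 6, 2 and 1 of these genes higher and 0 lower in each list. Medians below 0 were found for cholesterol synthesis (-0.28, 22 genes), insulin signalling (-0.30, 21 genes), triglyceride synthesis (-0.09, 16 genes) and lipolysis and droplet coats (-0.10, 17 genes), with 2, 2, 1 and 1 genes lower and 0 higher. Insig1, which holds back cholesterol synthesis, was at 59.5, 73.3 and 65.1 against 86.7 and 117 (adjusted p = 0.604). Glycolysis (0.00, 25 genes), noradrenaline and cAMP signalling (-0.05, 23 genes), antigen presentation (-0.00, 18 genes) and creatine and calcium cycling (0.03, 6 genes) were near the median of all genes, as were stress response (-0.13, 18 genes), immediate early genes (0.12, 17 genes) and metal binding (-0.14, 5 genes). In these 7 lists 1, 0, 1, 0, 0, 0 and 0 genes were higher and 1, 1, 0, 0, 1, 0 and 0 lower at an unadjusted p under 0.05. Only 4 of 25 proliferation genes passed the minimum, with a median of 0.31 and 1 higher at an unadjusted p under 0.05.

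**Figure D5:**
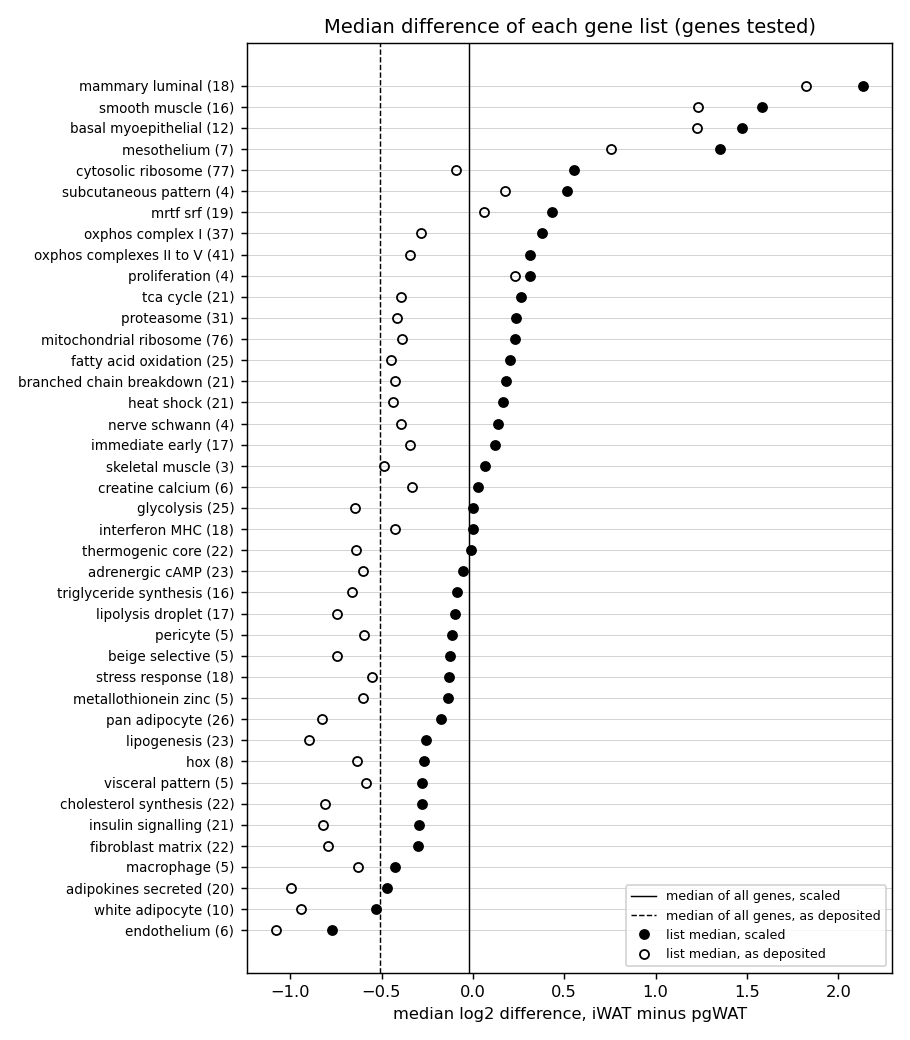
Median log2 difference (inguinal minus perigonadal, x axis) of each list with at least 3 tested genes, filled for scaled and open for deposited values, with the number of tested genes in brackets and vertical lines at the medians of all genes (-0.02 and -0.51). The luminal, smooth muscle and basal lists stand at 2.14, 1.58 and 1.47, medians that are set in part by members that passed the minimum only through the inguinal libraries.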

How the data were processed

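RNA pulled down with a GFP antibody was sequenced from 5 libraries with Illumina protocols, per the labels. Per the submitters' processing notes, reads were processed with TopHat and Cufflinks on mm9 (versions not given in the sources used here), and the authors deposited 1 Cufflinks transcript table per library with FPKM and its confidence bounds. The deposited score column was not used. FPKM were summed per gene symbol, divided by median-ratio factors, and tested in limma 3.58.1 (R 4.3.3) with a variance trend on log2(scaled FPKM + 1), for genes at 1 FPKM or more in 2 of the 5 libraries. Fragments were worked back from the confidence bounds of single-transcript genes: 83.9% to 92.8% of low values came out whole within 0.05. On simulated fragments for this comparison, 47% of 200 genes of at least 5 FPKM changed 4-fold were recovered with 2 false calls among 8765 genes. A file that gives FPKM only has no exact depth, so fragment numbers are estimates. Genes were named by a rule: 30 fixed genes, up to 12 per direction among called genes with a group mean of at least 5, and up to 4 per list; others were chosen after their values were seen. The members and the 45 gene lists were chosen with earlier results of these data known. Figures were drawn with matplotlib 3.10.9. The result of 1 gene of the smooth muscle list is not reported here.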

Additional observations from a re-analysis of the deposited data

How the results depend on the processing

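The 23 calls (20 higher, 3 lower) came to 50 (30 lower) as deposited, 13 higher with factors from abundant genes, 11 (9 higher) with a pseudocount of 5, 11 (9 higher) at a minimum of 5 FPKM and 0 (0 higher, 0 lower) of 14958 genes with no filter, where Acta2, Expi, Fxyd3 and Ltf had an adjusted p of 0.0885. With genes under 300 nt left out 0 were lower. Leaving out 1 library gave 4 to 23 calls, 4 to 19 higher and 0 to 4 lower. In 2 fits chosen after seeing the data, all 8 libraries in 1 model gave 51 calls (27 lower) as deposited and 0 lower without genes under 300 nt. The other settings stayed within 1.5 times of these counts. Of the calls, 40% were higher as deposited and 87% with scaling. A replicate block gave 6 calls (5 higher, 1 lower). The labels do not say whether the replicate numbers pair the samples, and only 2 numbers are shared. Deviations of same-numbered libraries correlated at 0.000266 and -0.117. With 2 perigonadal libraries their deviations mirror each other, so these correlations cannot decide whether the samples are paired. For 143 named genes, 2596 of 2776 values stayed on their side of the threshold, 145 lost a call, 35 gained one and 0 reversed; 186 uncalled ones changed sign. With 275349 estimated fragments, inguinal replicate 3 limits genes near 1 FPKM.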
